A study of Mus musculus with 4 samples.

Results

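The circadian clock genes described here are Ciart, Per1, Per2, Per3, Cry1, Cry2, Nr1d1, Nr1d2, Dbp and Tef, 10 core clock and clock output genes chosen by symbol. They were read on 4 Affymetrix Mouse Gene 2.0 ST arrays. A gene had a value when a transcript cluster (the probe set of 1 annotated transcript region) carried its symbol alone. That held for 9 of the 10 genes, out of 22180 named genes in all. Per2 had no value, because its 1 cluster also carries the symbol 9830107B12Rik, and 1 further cluster of Cry2 was set aside for the same reason. The list was proposed with results of these arrays in view, Ciart being already known to be higher in the knockout head. Knockout differences of these genes are therefore a description and carry no test.

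Each of 4 groups had 1 array. Heads were taken at embryonic day 12.5 (E12.5) from wild-type and from Tbx1KO embryos, and palatal shelves at E13.5, again from both genotypes. All embryos had a mixed C57BL/6J x FVB/N background. Tbx1 encodes a T-box transcription factor of the pharyngeal apparatus, and the palatal shelves grow out from the upper jaw to make the secondary palate. The sources used here give neither the allele, nor how many embryos lie behind each RNA, nor the hour of day of collection. With 1 array per group no knockout difference has a replicate check, so precision is limited by the number of arrays.

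The mammalian clock is a feedback loop of transcription. CLOCK and BMAL1 (the product of Arntl), or NPAS2 in place of CLOCK, bind E-boxes and switch on the Per, Cry, Nr1d, Dbp, Tef and Ciart genes, and PER, CRY and CIART (also called CHRONO) then repress that activation. NR1D1 and NR1D2 (REV-ERB alpha and beta) compete with ROR receptors for their shared sites, which include Arntl, and DBP and TEF act on D-boxes against the repressor NFIL3. In tissues with a running clock, Arntl and Npas2 peak at about the opposite time of day from Dbp and the Nr1d genes, and such rhythms emerge gradually during development. Per1 also responds to cAMP signalling and to glucocorticoids.

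RefSeq promoter windows of GRCm38.p6, 250 bases before to 50 after each start, were found for the 9 members that had values, with 11 windows in all. The letters searched on both strands were CACGTG (the canonical E-box), CACGTT (a variant E-box), TTATGTAA (a D-box), TGACG (the half-site of the cAMP response element) and TAGGTCA or TGGGTCA (the core of a ROR element). These letters do not overlap one another in the stretches shown. The 250 bases before the start are printed for Ciart and for both starts of Per1, the members with the highest knockout differences in the palatal shelves, and for Per3, whose level hardly varied. Capitals mark the matched letters.
Ciart: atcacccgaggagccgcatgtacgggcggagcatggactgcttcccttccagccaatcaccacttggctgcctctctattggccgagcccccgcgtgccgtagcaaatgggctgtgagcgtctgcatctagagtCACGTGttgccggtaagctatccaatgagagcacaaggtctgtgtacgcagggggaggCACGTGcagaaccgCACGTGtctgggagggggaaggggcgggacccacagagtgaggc
Per1 (upstream start): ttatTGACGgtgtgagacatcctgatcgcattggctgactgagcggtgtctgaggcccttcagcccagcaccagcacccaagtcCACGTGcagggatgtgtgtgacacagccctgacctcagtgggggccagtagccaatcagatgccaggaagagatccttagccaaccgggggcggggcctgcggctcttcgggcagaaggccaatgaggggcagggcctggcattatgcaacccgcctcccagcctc
Per1 (downstream start): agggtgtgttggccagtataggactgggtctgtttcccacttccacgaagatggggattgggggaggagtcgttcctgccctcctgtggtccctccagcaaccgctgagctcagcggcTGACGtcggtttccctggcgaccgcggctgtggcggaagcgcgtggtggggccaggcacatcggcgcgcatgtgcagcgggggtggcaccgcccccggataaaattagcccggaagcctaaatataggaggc
Per3: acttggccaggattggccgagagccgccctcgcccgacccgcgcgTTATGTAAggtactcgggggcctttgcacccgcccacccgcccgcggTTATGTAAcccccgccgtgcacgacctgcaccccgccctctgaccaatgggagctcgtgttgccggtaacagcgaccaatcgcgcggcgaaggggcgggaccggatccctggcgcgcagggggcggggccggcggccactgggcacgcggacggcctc
The Ciart stretch is chr3:95882229-95882478 on the minus strand, and the Per1 stretches are chr11:69098699-69098948 and chr11:69099902-69100151 on the plus strand. The Per3 stretch is chr4:151044666-151044915 on the minus strand.

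Ciart held 3 canonical E-boxes, whose first bases lie 116, 58 and 44 bases before its start. Of all 32851 windows of this length, 7.15% held at least 1 such E-box and 0.0883% held at least 3. Per1 held 1 canonical E-box before its upstream start and 1 cAMP half-site before each start. Per3 held 2 D-boxes, 205 and 158 bases before its start, against 0.938% of all windows with at least 1 and 0.0213% with at least 2. A canonical E-box was found for 4 members (Ciart, Per1, Cry1 and Tef) and the variant, present in 4.68% of windows, for 3 (Cry1, Cry2 and Nr1d1). The cAMP half-site was present in 20.8% of windows and in those of Per1, Cry1 and Cry2, and the ROR core in 6.45% of windows and in none of the members'. The windows of Dbp and Nr1d2 held none of these letters, which says only that they are not in these 300 bases. A match is a run of letters and was not tested as a binding site.

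The values are log2 levels made with RMA, a method that corrects background, sets all arrays to a common distribution and summarises probes, and differences are knockout minus wild type on that scale. Genes were kept for a pair if at least 1 of its 2 arrays read 6.16 or more, which is the median level of named genes, and such genes are said to have entered. Of the 9 members, 8 entered both pairs and Tef entered neither. As a check of the labels, the level of Tbx1 was 6.83 in the wild-type and 6.25 in the knockout head, and 7.39 in the wild-type and 6.18 in the knockout shelves. Where the deletion lies relative to the probes was not stated in these sources.

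Ciart, the E-box-driven repressor of CLOCK and BMAL1, was the member with the highest knockout difference in both tissues. Its log2 level was 5.84 in the wild-type head, 6.42 in the knockout head, 6.13 in the wild-type shelves and 6.91 in the knockout shelves. Both knockout arrays thus lay above both wild-type arrays. Its difference of 0.58 in the head was a 1.49-fold higher level, and that of 0.78 in the shelves a 1.72-fold higher level. Among genes that entered, Ciart ranked 14 from the highest of 11364 in the head and 111 of 11449 in the shelves. Both wild-type levels were below the limit for entry, so Ciart entered each pair only through the array in which it was higher, and RMA compresses folds in this range.

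Per1 and Per3, the Period genes with a value, encode PER repressors and did not share this pattern. Per1 had log2 levels of 8.66 in the wild-type head, 8.70 in the knockout head, 8.72 in the wild-type shelves and 9.18 in the knockout shelves. The knockout shelf array stood above the other 3, which ranged from 8.66 to 8.72. For Per1 the knockout head differed by 0.044 and the knockout shelves by 0.46, a 1.37-fold higher level there, where 3.53% of genes had a higher difference. Whether the Per1 differences of the pairs differ from each other was not tested. Per3 had levels from 6.37 to 6.46 over the 4 arrays, with differences of -0.018 in the head and 0.032 in the shelves. It had the smallest range over the arrays of the 9 members, 0.096.

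**Figure D1:**
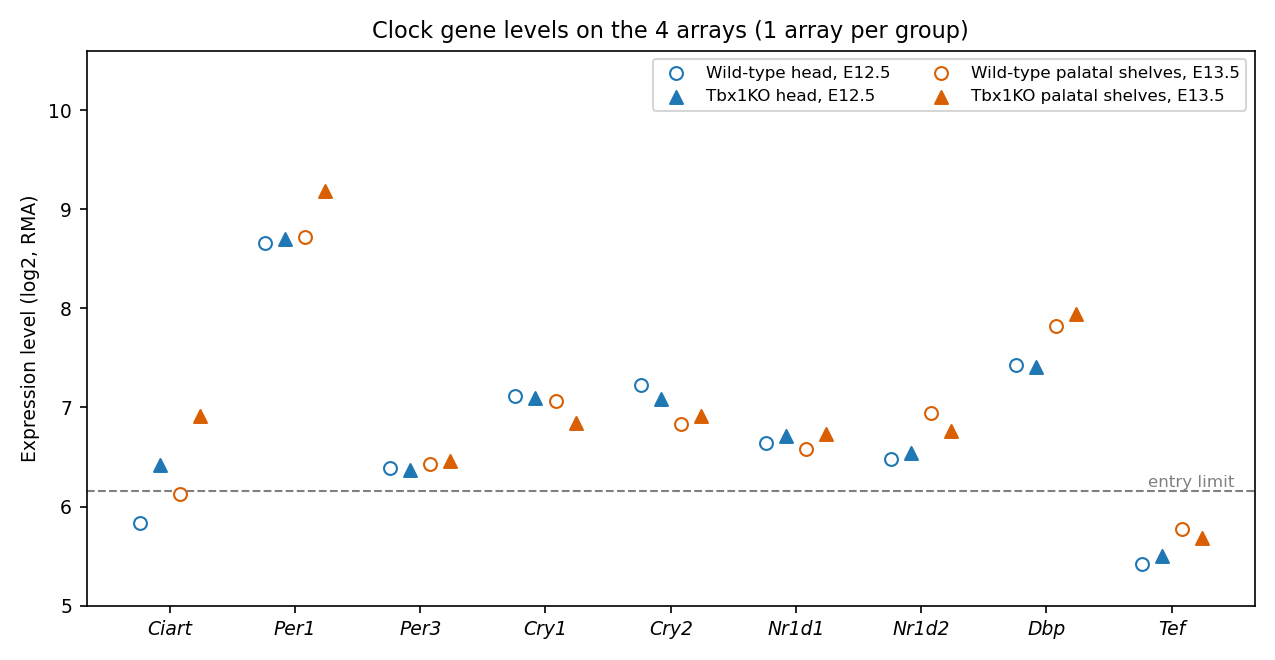
Log2 expression level (RMA, vertical axis) of the 9 clock genes with a value on the 4 arrays; each point is 1 array, circles are wild type, triangles Tbx1KO, blue the head and orange the palatal shelves, and the dashed line is the limit for entry (6.16). Both Ciart triangles lie above both Ciart circles, the Per1 level of the knockout shelves (9.18) stands above the other 3, and Tef lies below the limit on all arrays.

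The Cryptochrome genes, which encode partners of PER in repression, had small differences. Cry1 had log2 levels of 7.12 in the wild-type and 7.10 in the knockout head, and of 7.06 in the wild-type and 6.84 in the knockout shelves. It differed by -0.021 in the head and by -0.22 in the shelves, the lowest of the members there, and 8.94% of genes had a lower one. Cry2 had levels of 7.23 and 7.09 in the wild-type and knockout head, and of 6.83 and 6.91 in the wild-type and knockout shelves. The Cry2 differences were -0.14 and 0.076. They were opposite in sign, and both were smaller than the disagreement between probe sets of 1 gene, an SD of 0.175 per cluster in the head and 0.226 in the shelves.

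The Nr1d genes encode haem-binding nuclear receptors that repress transcription. Nr1d1 had log2 levels of 6.64 in the wild-type head, 6.71 in the knockout head, 6.58 in the wild-type shelves and 6.73 in the knockout shelves, with differences of 0.073 and 0.15. Nr1d2 had levels of 6.48, 6.54, 6.95 and 6.76 in the same order of arrays, with differences of 0.052 and -0.18. Nr1d1 was slightly higher in both knockout arrays, whereas Nr1d2 was higher in the knockout head and lower in the knockout shelves. All 4 values were smaller than the SD between probe sets of 1 gene.

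Dbp and Tef encode activators of the PAR bZIP family, and Dbp is among the most strongly cycling genes of adult tissues. Dbp had log2 levels of 7.43 in the wild-type head, 7.40 in the knockout head, 7.82 in the wild-type shelves and 7.94 in the knockout shelves. Its knockout differences were -0.026 in the head and 0.12 in the shelves. Both shelf arrays thus lay above both head arrays, with small differences between genotypes. Tef was below the limit for entry, with mean levels from 5.42 to 5.78. Its 2 clusters disagreed in sign, at 0.23 and -0.068 in the head and at 0.15 and -0.33 in the shelves.

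Taking the members that entered as a group, none of 8 was at least 2-fold higher or lower in either pair. The same rule took in 0.0352% of all entered genes as higher and 0.0528% as lower in the head, and 0.463% as higher and 0.472% as lower in the shelves. At 1.5-fold, 1 member (Ciart) was higher in the shelves, where 1.91% of all genes were higher and 1.34% lower, and 0 members passed in the head, where 0.106% were higher and 0.352% lower. A smaller rule, a log2 difference of at least 0.32, took in 1 member as higher in the head (Ciart, against 1.74% of all genes) and 2 in the shelves (Ciart and Per1, against 7.6%). By that rule 0 members were lower, against 2.41% of all genes in the head and 4.65% in the shelves. The median difference of the members was 0.013 in the head, beside -0.017 over all genes, and 0.10 in the shelves, beside 0.021. In the head 4 of 8 members were above 0 and 4 below, beside 44.5% and 55.5% of all genes, and in the shelves 6 were above and 2 below, beside 55.2% and 44.8%. The signs were positive in both pairs for 3 members (Ciart, Per1 and Nr1d1), negative in both for Cry1 and opposite for the other 4. Ciart was the 1 member past 0.32 in both pairs, as were 0.231% of the 10814 genes that entered both, while 0.296% were lower in both and 0.24% opposite.

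**Figure D2:**
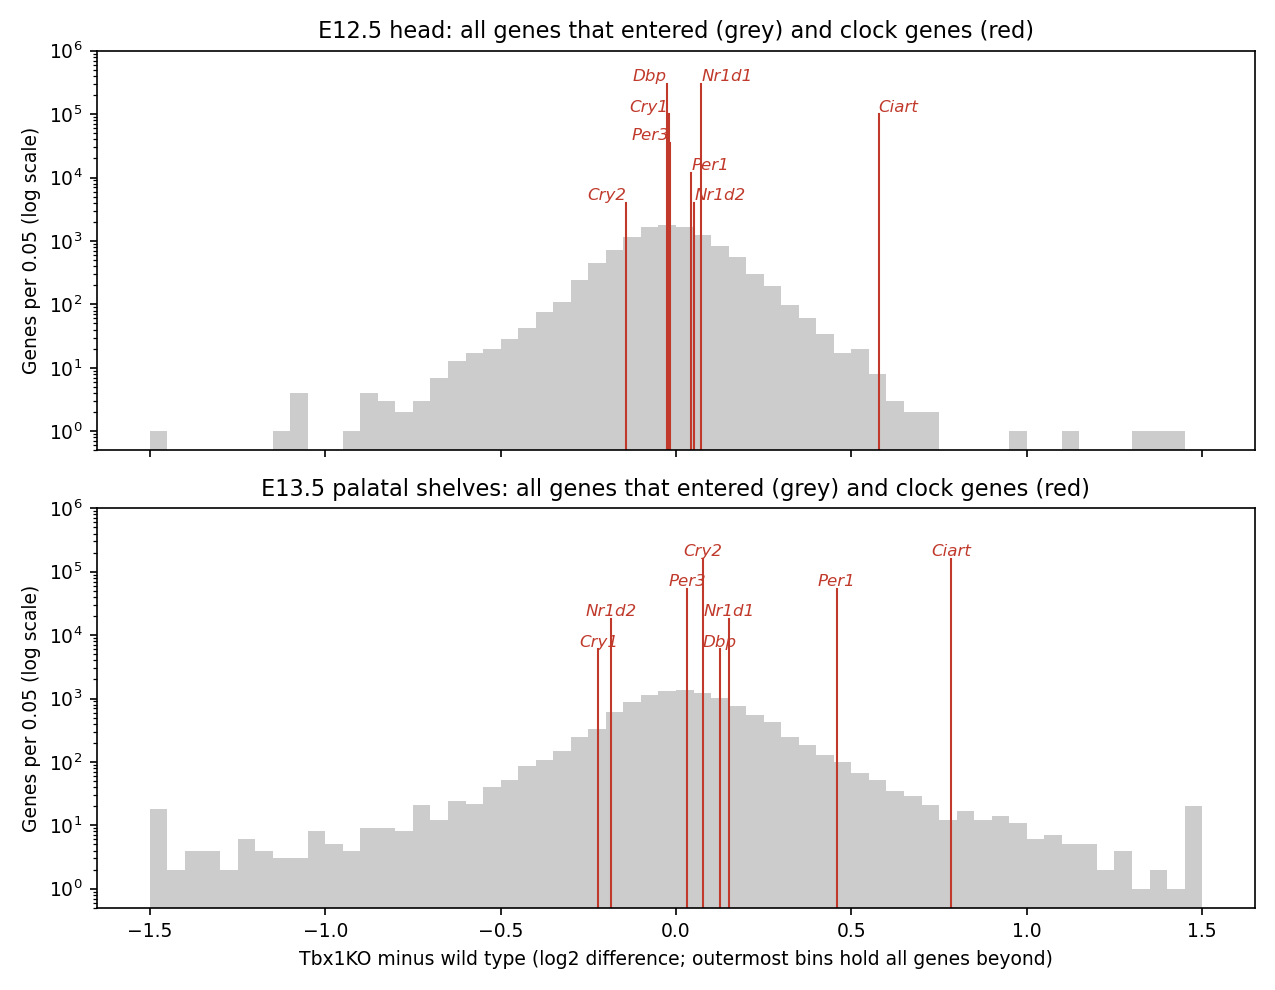
Tbx1KO minus wild-type log2 difference (horizontal axis) of all genes that entered, as counts per 0.05 on a log axis (grey), with the 8 clock genes that entered as red lines, for the head above and the palatal shelves below. Ciart stands on the right flank in both panels (0.58 and 0.78) and Per1 in the shelves (0.46), while the other members lie within the bulk of genes.

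Other parts of the loop gave further values. Among the 7 clock activators, 6 had a cluster of their own. Clock, at levels from 9.28 to 9.45, had differences of 0.020 in the head and -0.042 in the shelves. Arntl, which encodes BMAL1, had levels of 7.34 and 7.18 in the wild-type and knockout head and of 7.41 and 7.44 in the wild-type and knockout shelves, differences of -0.16 and 0.031. Npas2 entered in the shelves, with a difference of -0.11. Dbp, whose peak opposes those of Arntl and Npas2 in a running clock, was at -0.026 in the head and 0.12 in the shelves. Whether the hour of collection differed within a pair was not tested.

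Rora, a ROR receptor that activates Arntl, was the 1 other gene of the clock lists that entered and was past 0.32 in both pairs. Its level was 6.61 in the wild-type and 7.06 in the knockout head (difference 0.45), and 6.98 in the wild-type and 7.31 in the knockout shelves (0.33). Rorb, a ROR receptor of brain and retina, had differences of -0.16 in the head and 0.94 in the shelves, while among the wild-type arrays its level was 7.84 for the head and 5.82 for the shelves. It entered the shelf pair only through the knockout array (6.76).

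In the list named other clock repressors and bZIP factors, the 4 genes that entered were above 0 in both pairs, with medians of 0.17 and 0.21. Of all genes, 44.5% were above 0 in the head and 55.2% in the shelves. Nfil3, the D-box repressor, had differences of 0.22 in the head and 0.19 in the shelves, and Hlf, a relative of Dbp and Tef, 0.19 and 0.22. Bhlhe40 (Dec1), an E-box repressor that is also induced by low oxygen, had differences of 0.14 in the head and 0.71 in the shelves, where wild type stood at 8.10 and the knockout at 8.81. Timeless had differences of 0.034 and 0.17.

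The kinases, ubiquitin ligases and other modifiers of clock proteins had medians of 0.024 in the head and 0.10 in the shelves over 6 genes. None was past 0.32, and the highest absolute differences were those of Csnk2a1 (-0.13 in the head, 0.20 in the shelves), a catalytic subunit of casein kinase 2. The clock output genes had medians of -0.10 over 5 genes and 0.15 over 6. In the shelves, Tsc22d3 (0.52), Tspan4 (0.36) and Nampt (0.34) were past 0.32, while Leo1 (-0.14) and Wee1 (-0.12) were below 0. By the rule of 0.32, 7.6% of all entered genes were higher and 4.65% lower in the shelves. In the head 1.74% were higher and 2.41% lower. Tsc22d3 (6.02 in wild type and 6.53 in the knockout) entered only through the knockout array. In the head, Klf9 (0.26) and Wee1 (-0.21) had the highest absolute differences of this list.

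Response genes were set beside Per1 and Ciart, because Per1 also responds to other signals. Of the immediate early genes, 5 entered in the head, with a median of 0.045, and 9 in the shelves, with a median of 0.10. Ier3 was at 0.96, Dusp1 at 0.27, Ier2 at 0.21 and Junb at -0.20 in the shelves, where Ier2 entered only through the knockout array. In the head, Jun was at -0.27 and Arc at 0.19. Egr1 (0.10) and Nr4a1 (-0.10) were close to 0 in the shelves, and Fos was below the limit for entry on all arrays. Glucocorticoid-responsive genes had a median of 0.20 over 6 genes in the head and 0.25 over 7 in the shelves, with Ddit4 at 0.95 and Tsc22d3 at 0.52 in the shelves, Sgk1 at 0.24 and 0.26 and Fkbp5 at -0.25 and 0.25 in head and shelves. Zbtb16 had the highest difference of this list in the head (0.40) and was at -0.078 in the shelves. Ddit4 is induced by low oxygen as well. Hypoxia-responsive genes had a median of -0.011 in the head, with 4 of 9 above 0, and of 0.75 in the shelves, with 10 of 10 above 0, among them Bnip3 (1.38), Vegfa (1.17) and Egln3 (1.04). The shares of all genes above 0 were 44.5% in the head and 55.2% in the shelves. Of the hypoxia-responsive genes that entered in the head, Vegfa was the 1 gene past 0.32 (0.36), beside 1.74% of all genes. The log2 summed level of the hypoxia list was 11.43 and 11.50 in the wild-type and knockout head and 11.57 and 12.34 in the wild-type and knockout shelves. The part of these responses in the Per1 and Ciart levels was not tested.

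**Figure D3:**
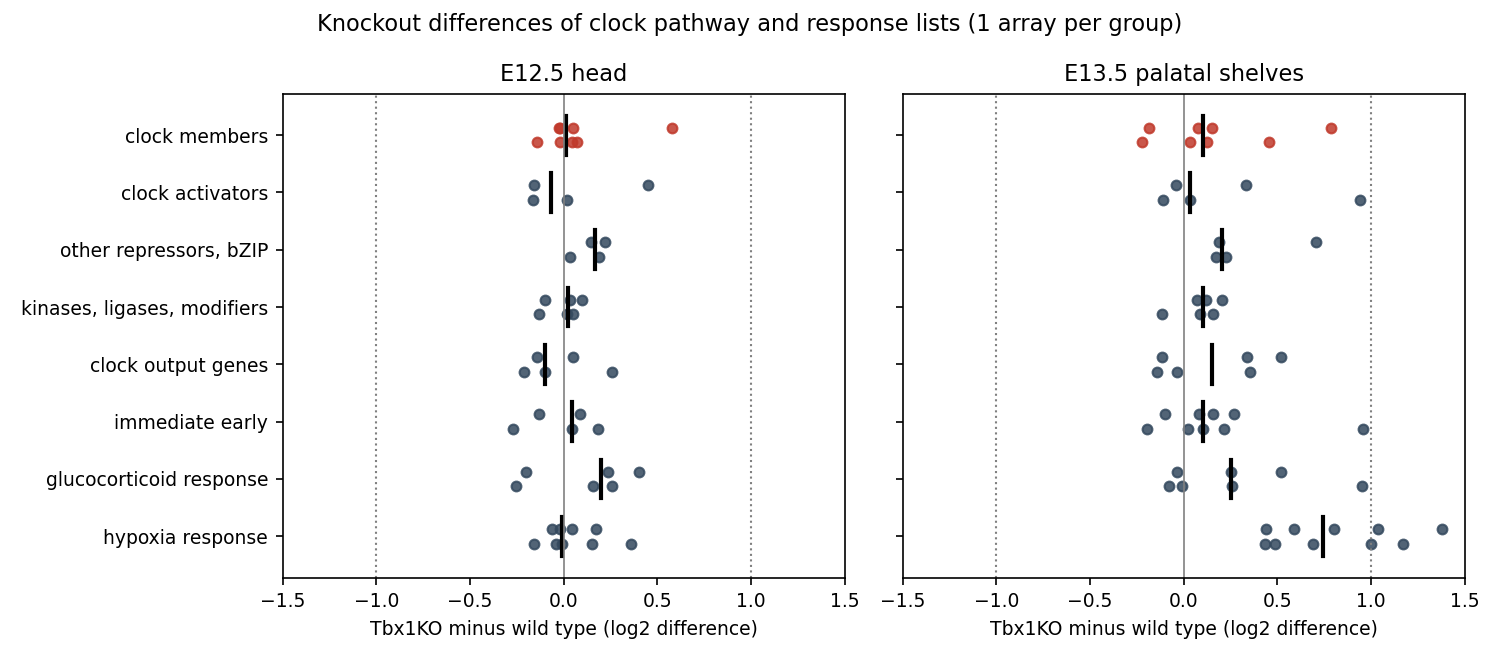
Tbx1KO minus wild-type log2 difference (horizontal axis) of each gene that entered (points) by list (rows), with the list median as a black bar, in the head (left) and palatal shelves (right); dotted lines mark 2-fold. The clock members (red) have medians of 0.013 and 0.10, and the hypoxia-responsive genes have a median of -0.011 in the head, with Vegfa at 0.36, and all lie above 0 in the shelves.

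Markers of cell types also moved within the pairs. Skeletal muscle genes were below 0 in 11 of 11 in both pairs, with a log2 summed level of 11.18 in the wild-type and 10.39 in the knockout head and of 11.04 and 9.93 in the shelves. The shares of all genes below 0 were 55.5% in the head and 44.8% in the shelves. Mylpf and Casq2 entered both pairs only through the wild-type array, which fixed their sign. The same held for Ttn, Neb and Myog in the shelves. Neuronal genes were above 0 in 9 of 10 in the knockout shelves and in 5 of 10 in the knockout head, with summed levels of 11.47 and 12.02 in the wild-type and knockout shelves. Over all genes, 55.2% were above 0 in the shelves and 44.5% in the head. Gad2 and Nefm entered the shelf pair only through the knockout array and Elavl4 only through the wild-type array, which fixed their signs there. Erythroid genes were below 0 in 6 of 6 in the head, beside 55.5% of all genes, and their summed level was 12.84 for wild type and 12.53 for the knockout. Kel and Epb42 entered the head pair only through the wild-type array, which fixed their sign. Macrophage genes were below 0 in 5 of 6 in the shelves, where their summed level was 10.23 for wild type and 9.82 for the knockout. List medians in head and shelves were -0.097 and -0.048 for neural progenitors, -0.017 and -0.12 for epithelium and 0.038 and 0.17 for palatal mesenchyme. In whole tissue, fewer cells of a type and less RNA per cell cannot be told apart, and the part of these cell types in the clock gene values was not tested.

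Palatal shelves at E13.5 were then compared with the head at E12.5, a contrast that was not used to choose the genes. An additive limma fit of tissue and genotype over all 11999 genes used 2 arrays per tissue and left 1 residual degree of freedom, so its errors rest mostly on the spread shared by all genes. Tissue and stage cannot be told apart. Dbp and Ciart were the members that passed. Dbp was higher in the shelves by 0.46 on the log2 scale (SE 0.10, 1.38-fold, limma adjusted p = 0.0174), with both shelf arrays above both head arrays. Ciart was higher by 0.39 (SE 0.11, 1.31-fold, limma adjusted p = 0.0366). The shelf array was the higher one within each genotype, but the knockout head (6.42) lay above the wild-type shelves (6.13). The Ciart call was lost under 5 alternatives, with limma adjusted p values up to 0.11, and the Dbp call without a filter on dim genes (adjusted p = 0.0626).

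The share of all genes that passed in this contrast was 27.9%, with 13% higher and 14.9% lower in the shelves, so 2 of 8 members is near that background. Nr1d2 had a shelves minus head difference of 0.34 (SE 0.11, limma adjusted p = 0.0593), with both shelf arrays above both head arrays. Per1 had one of 0.27 (SE 0.13), Per3 of 0.071 and Nr1d1 of -0.018 (SE 0.10 for each of these last 2). Cry2 had one of -0.29 (SE 0.11, limma adjusted p = 0.0935), with both shelf arrays below both head arrays, and Cry1 one of -0.15 (SE 0.11). The median over the 8 members was 0.17, beside -0.020 over all genes tested.

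**Figure D4:**
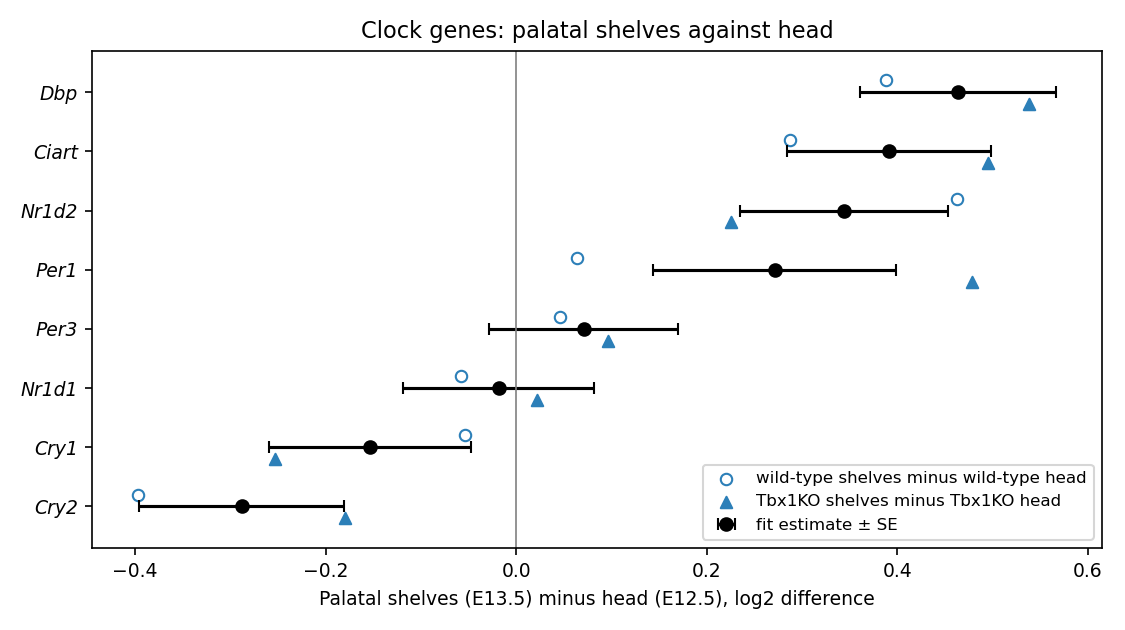
Palatal shelves minus head log2 difference (horizontal axis) of the 8 clock genes tested; black points and bars are the estimate and SE of the limma fit over 4 arrays, open circles the wild-type arrays and triangles the Tbx1KO arrays. Dbp (0.46) and Ciart (0.39) are the highest and Cry2 (-0.29) the lowest.

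In the other clock lists, Npas2 rose by 1.09 (SE 0.10) and Bhlhe40 by 1.24 (SE 0.15) from head to shelves, with limma adjusted p of 0.00055 and 0.00147. Npas2 read 5.91 in the wild-type and 5.90 in the knockout head, both below the limit for entry. It was thus tested only through the shelf arrays. Klf9, a gene of the clock output and glucocorticoid lists, rose by 0.66 (SE 0.11). Rorb fell by 1.47 (SE 0.24), and the kinase genes Csnk1e and Gsk3b, whose products phosphorylate clock proteins, fell by 0.61 (SE 0.10) and 0.48 (SE 0.11). Of the genes tested, 1 of 5 activators passed in each direction, 1 of 4 other repressors and bZIP factors was higher, 2 of 6 modifiers were lower and 1 of 6 output genes was higher. The tissues differed widely in cell type markers, with 10 of 10 neuronal and 6 of 6 erythroid genes lower and 6 of 6 epithelial and 6 of 6 palatal mesenchyme genes higher in the shelves. Of all genes tested, 14.9% passed as lower and 13% as higher. Hbb-bh1, Kel and Epb42 were tested only through the head, and Cdh1 and Krt18 only through the shelves, which favoured their direction. The part of these cell types in the clock gene differences was not tested.

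The genes most like Ciart and Dbp, the members with the largest ranges over the arrays (1.07 and 0.54), were found by the Euclidean distance between log2 profiles centred over the 4 arrays, among the other 11998 genes tested, of which 759 predicted genes and the like were skipped. With 4 arrays this is a description. Nearest to Ciart was Depp1, a gene named for its induction by progesterone in the decidua, at a distance of 0.0769. Its levels were 6.89 in the wild-type head, 7.37 in the knockout head, 7.17 in the wild-type shelves and 7.91 in the knockout shelves, the same order of arrays as for Ciart. Next were Foxl1, a forkhead factor of mesenchyme (distance 0.273), and Rgs5, a G protein signalling regulator of pericytes (0.280). Foxl1 read 5.84 in the wild-type head, 6.06 in the knockout head and 5.93 in the wild-type shelves, all below the limit for entry. It was searched only through the knockout shelf array (6.62). Nearest to Dbp were Alg6 (0.0241), Siae (0.0304) and Rbms1 (0.0311).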

How the data were processed

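Total RNA (100 ng per array) was labelled with biotin and hybridised to 4 arrays, per the labels' protocols. Per the submitters' processing notes, the authors used RMA in Affymetrix Expression Console, and the table they deposited holds a log2 level for each transcript cluster. Software versions, genome build and annotation: not given in the sources used here. Groups follow the sample titles. In 1 other label the E13.5 samples are called heads, and the titles were followed.

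Of 41345 clusters, 23521 carried 1 symbol in the platform annotation, 1814 several and 16010 none. By Entrez identifier 23328 matched a RefSeq table of GRCm38.p6. Clusters of 1 gene were averaged. Differences within a pair have no test and are counted from 2-fold, with 1.5-fold and a log2 difference of 0.32 as further rules. Shelves and head were compared with limma 3.58.1 in R 4.3.3 (lmFit and eBayes, two-sided, Benjamini-Hochberg, adjusted p under 0.05) with genotype as a covariate. The 1 residual degree of freedom is the disagreement between genotypes on the shelves minus head difference. The p-values rest on that disagreement and on the spread shared by all genes, and not on replicate arrays. A knockout effect that differs between tissues therefore counts as error. These sources do not say whether the embryos came from separate litters. The prior had 5.49 degrees of freedom. Tested on simulated data for this comparison over 11999 genes in 5 runs, the fit found 97.4% of genes shifted by a log2 difference of 1 and 100% of those shifted by 2, but 105 of its 1092 calls were false. These shifts exceed the largest shelves minus head difference of a member, 0.46 for Dbp. The simulation also had no knockout effect that differs between tissues. It therefore does not measure how well the members' differences are found.

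The text names all members, genes from the up to 4 per list with the largest differences, and the 3 genes nearest in profile to each of the 2 members with the largest range. Egr1, Nr4a1 and Fos were added after their values were seen. The members and lists were chosen with earlier results of these data known. Alternatives were other normalizations, the brightest cluster, other filters on dim genes and other priors of the fit. Some list genes are not analysed here.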

Additional observations from a re-analysis of the deposited data

How the results depend on the processing

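The 8 members that entered have 1 cluster each, so the brightest cluster and the filters on dim genes cannot change their knockout differences, and only the 3 other normalizations bear on them. Of 48 such differences under these, 47 kept their direction and 48 moved by less than the disagreement between probe sets. The exception in direction was Per3 in the shelves, at -0.00037 after quantile normalization again. Ciart was at 0.56 in the head and between 0.77 and 0.80 in the shelves, and Per1 between 0.025 and 0.082 in the head and between 0.43 and 0.47 in the shelves. Tef, with 2 clusters, had a shelf difference of -0.091 averaged and of 0.15 with the brightest cluster, a turn in direction by more than the SD between probe sets (0.226). With the upper-quartile filter Ciart did not enter, which left 0 members past a log2 difference of 0.32 in the head and 1 (Per1) in the shelves, and a shelf median of 0.29. Centring each array on its median put the head median at -0.0056. In place of 0 members at 2-fold, 1 was past 0.32 in the head, and 1 past 1.5-fold and 2 past 0.32 in the shelves. For shelves against head, 1 member (Dbp) passed with median-centred arrays, with cyclic loess, after quantile normalization again, with the upper-quartile filter and with a mean-variance trend, and 0 passed limma without a filter on dim genes, where 3 had an unadjusted p under 0.05. In 4 of the settings Ciart then had limma adjusted p values of 0.0683, 0.05003, 0.0610 and, under the trend, 0.0740, and it had 0.11 without the filter. With the brightest cluster Tef entered in the shelves and also passed (0.42, limma adjusted p = 0.0249). The fit compares shelves with head within genotype. Within a pair, no paired analysis was possible because the labels give no replicate numbers and each group has 1 array, and no array could be left out for the same reason.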
